A study of Mus musculus with 14 samples.

Results

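The transcripts described here came from 10 imprinted genes that control growth: *H19*, *Igf2*, *Dlk1*, *Meg3*, *Rian*, *Peg3*, *Plagl1*, *Cdkn1c*, *Grb10*, and *Igf2r*. They were chosen by symbol from the 24062 genes of a bulk RNA-seq count table, and all 10 symbols were found in it. The table holds 14 libraries of whole tissue. The 3 control libraries are labelled dorsal root ganglia (DRGs), and the study's methods name control DRGs/nerves. They came from Nf1fl/fl mice, in which both copies of *Nf1* carry loxP sites and no Cre is listed. The 11 plexiform neurofibroma (PN) libraries are tumors of DhhCre;Nf1fl/fl mice, in which the *Dhh* promoter drives Cre in the Schwann cell lineage, so that the other cells of the tumor keep *Nf1*. By the study's MRI scans at 7 and 9 months, the 5 slow-growing PNs changed by less than 5 mm3 in 2 months, and the 6 fast-growing PNs gained more than 35 mm3. Control and PN tissue came from adult males and females at 9 months per the study's methods (a figure legend gives 7 months), on a mixed C57BL/6, I-129, and FVBN background, without drug treatment. Sex is not given for each library here, and the strain mix was shared by all groups.

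An imprinted gene is transcribed mainly from the copy inherited from 1 parent. Most are governed by a control region that is methylated in the germ line of only 1 parent. Many genes that are active from the paternal copy promote growth, and many that are active from the maternal copy restrain it. *Igf2* encodes a secreted growth factor, the *Igf2r* receptor carries that factor to the lysosome for degradation, and *Grb10* encodes an adaptor that dampens signalling by the insulin and IGF1 receptors. *H19*, *Meg3*, and *Rian* are maternally expressed long noncoding RNAs. *H19* shares enhancers with *Igf2*, and *Meg3* and *Rian* share a domain with *Dlk1*, a paternally expressed transmembrane protein related to the Notch ligands. *Cdkn1c* encodes the cyclin-dependent kinase inhibitor p57, and *Peg3* and *Plagl1* encode zinc finger proteins that are expressed from the paternal copy. Most of these genes are high in the embryo and fall after birth. *Meg3*, *Rian*, and *Peg3* are known for high expression in neurons, and *H19* and *Igf2* for expression in developing and regenerating muscle.

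*H19* also carries the precursor of a microRNA in its exons. The mature arms lie at chr7:142577112-142577133 (5p) and chr7:142577078-142577099 (3p) on the minus strand of GRCm38. They are shown because *H19* was the member that differed most from control, and the capitals mark the seed, bases 2 to 8. The seeds of both arms differ, so each arm belongs to its own seed group.
mmu-miR-675-5p: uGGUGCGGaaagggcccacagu
mmu-miR-675-3p: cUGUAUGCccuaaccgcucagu
The count table has a row for this precursor, *Mir675*, and it was at 0 counts in all 14 libraries. The precursor rows *Mir483* in *Igf2* and *Mir770* in *Meg3* were likewise at 0 in each library. In *Rian*, the row of *Mir1188* held 182 counts in all, with at most 37 in a library. These rows count reads of total RNA and do not measure mature microRNAs.

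The promoters of *Meg3*, *Rian*, *Peg3*, and *Plagl1* are shown because most pairs of these 4 transcripts varied together among the PNs, as described below. Each window runs from 250 bases before to 50 bases after a start site, as given by RefSeq for GRCm38.p6, and the capitals mark matches on either strand to TGCCGC, GGGGCCCC, GCCATNTT, or TATAAA. The hexamer TGCCGC is bound, when methylated, by the imprint keeper ZFP57, GGGGCCCC is the palindrome bound by the *Plagl1* protein, and GCCATNTT is the core of the YY1 site.
*Meg3*, chr12:109540746-109541045, plus strand: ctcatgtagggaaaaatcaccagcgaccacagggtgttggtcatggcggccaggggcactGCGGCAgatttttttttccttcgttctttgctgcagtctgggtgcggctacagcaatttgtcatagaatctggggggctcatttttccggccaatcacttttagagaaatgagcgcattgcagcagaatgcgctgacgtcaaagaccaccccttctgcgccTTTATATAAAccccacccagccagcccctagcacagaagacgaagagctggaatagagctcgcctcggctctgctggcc
*Rian*, chr12:109603695-109603994, plus strand: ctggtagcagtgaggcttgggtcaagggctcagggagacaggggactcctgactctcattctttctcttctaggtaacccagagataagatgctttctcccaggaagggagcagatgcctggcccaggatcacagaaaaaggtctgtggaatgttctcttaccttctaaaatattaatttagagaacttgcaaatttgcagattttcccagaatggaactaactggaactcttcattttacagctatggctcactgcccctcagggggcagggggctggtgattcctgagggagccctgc
*Peg3*, chr7:6730370-6730669, minus strand: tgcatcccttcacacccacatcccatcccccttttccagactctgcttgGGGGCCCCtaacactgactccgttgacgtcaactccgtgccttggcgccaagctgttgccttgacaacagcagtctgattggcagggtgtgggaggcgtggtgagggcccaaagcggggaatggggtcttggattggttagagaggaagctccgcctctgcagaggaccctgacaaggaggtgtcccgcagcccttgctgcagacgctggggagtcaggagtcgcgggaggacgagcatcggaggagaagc
*Plagl1*, chr10:13090582-13090881, plus strand: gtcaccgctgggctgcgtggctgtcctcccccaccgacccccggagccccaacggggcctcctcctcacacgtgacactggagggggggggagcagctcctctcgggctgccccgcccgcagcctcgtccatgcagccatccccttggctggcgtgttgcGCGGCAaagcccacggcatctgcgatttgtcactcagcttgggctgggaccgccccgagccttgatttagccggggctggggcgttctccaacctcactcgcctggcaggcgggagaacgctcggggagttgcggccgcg
The window of *Meg3* shown held 1 TGCCGC and 2 overlapping TATAAA matches, *Peg3* held 1 GGGGCCCC, *Plagl1* held 1 TGCCGC, and *Rian* held none of the 4 motifs. Among 32851 mouse promoters of the same length, 11.6% held TGCCGC, 1.08% GGGGCCCC, 6.05% GCCATNTT, and 13.6% TATAAA. No motif was shared by all 4 windows. RefSeq gives a second window for *Meg3*, chr12:109545148-109545447, which held none of the 4 motifs and 1 CpG. In the windows shown, CpG dinucleotides numbered 26 in *Plagl1*, 13 in *Meg3*, 13 in *Peg3*, and 0 in *Rian*, against a median of 7 over all promoters. RefSeq windows were also matched for *Igf2*, *Grb10*, *Dlk1*, and *Igf2r*. *H19* and *Cdkn1c* are named only.

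Library totals ran from 9596773 to 17594164 counted reads, and 3 counts corresponded to 0.167 to 0.313 CPM. The share of ribosomal *Rn45s* reads was 16.2% to 17.6% in controls, 3.48% to 15.3% in slow-growing PNs, and 7.24% to 18.1% in fast-growing PNs. Its relation to the levels of the members was not tested. The floxed gene *Nf1* was detected in each library, at 170 ± 51.5 CPM (SD, n = 3) in controls and 249 ± 22.8 CPM (SD, n = 11) in PNs, and it was called higher in PNs (log2 fold change 0.54, SE 0.16, edgeR adjusted p = 0.0215). Its counts cover the whole gene and do not measure the floxed exons alone, so they do not check the recombination. Schwann cell marker scores were between 7.41 and 8.87 in controls and between 8.52 and 9.77 in PNs, as the mean log2(CPM + 1) of 10 genes. 1 library stood apart. In the fast-growing PN 1191 the 12 sensory neuron markers summed to 27.9 CPM, whereas the sum in the other 13 libraries was 1636 or more. Skeletal muscle markers summed to between 3756 and 15042 CPM in controls, 34.6 and 3645 in slow-growing PNs, and 82.9 and 2370.2 in fast-growing PNs. Fat markers summed to between 2775 and 4426 CPM in controls, 43.4 and 2436 in slow-growing PNs, and 23.5 and 197 in fast-growing PNs. Both lists were lower in PNs than in controls by an exact permutation test of their scores (difference -4.47 for muscle and -4.07 for fat on the log2 scale, adjusted p = 0.00916 for each), with no overlap between the groups. In bulk tissue, fewer cells of a type and less RNA per cell cannot be told apart.

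PNs held less *H19* and more *Plagl1* than controls, in slow- as well as in fast-growing tumors by their levels. EdgeR called none of the other 7 members it tested in any of the comparisons. DESeq2 called *Meg3*, *Rian*, *Peg3*, and *Plagl1* higher in slow-growing PNs versus controls, among 3529 genes in all. It called *Igf2* and *Cdkn1c* lower in fast-growing PNs versus controls, where limma-voom also called *Igf2*. The numbers of genes called in all by these tools in the latter comparison are not given here. In PNs versus controls, edgeR called 2 of the 9 members that passed its filter on low counts, 1 lower and 1 higher, where 26.3% of the 16283 genes tested were called. In slow-growing PNs versus controls it called 1 of 9, against 11.3% of genes, and in fast-growing PNs versus controls 2 of 9, against 31.4%. The median log2 fold change of the 9 members was 0.27 in PNs versus controls, beside 0.10 over all genes tested. The called share of the members was near that of all genes, and *Dlk1* did not pass the filter in any comparison. *H19* and *Plagl1* were also the 2 members whose levels did not overlap between PNs and controls, a pattern held by 17.6% of the genes tested. Of the 9 that passed the filter, the same 2 members did not overlap in slow-growing PNs versus controls, against 23.5% of genes, nor in fast-growing PNs versus controls, against 32.7%. *Dlk1*, which failed the filter, did not overlap in fast-growing PNs versus controls either. In fast- versus slow-growing PNs the levels of 0 members were free of overlap, against 3.04%.

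**Figure D1:**
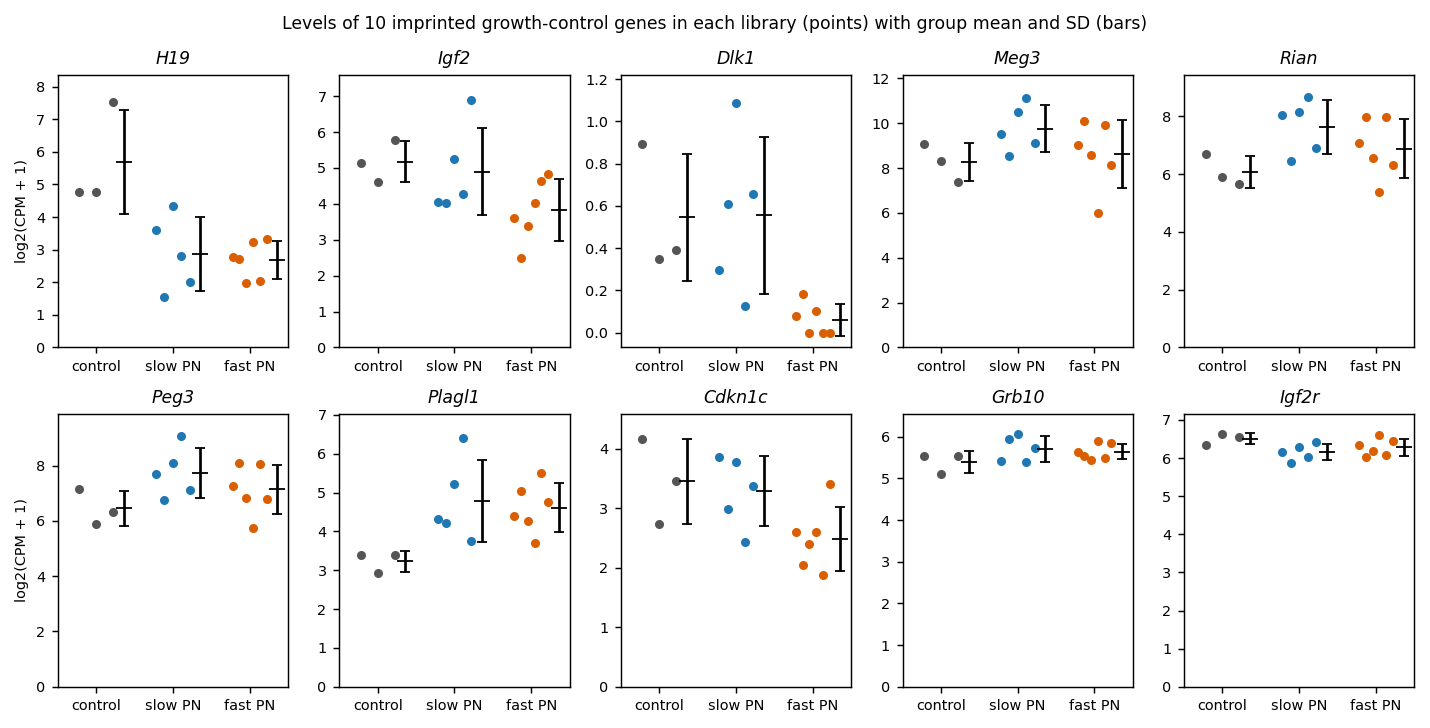
Level of each of the 10 genes as log2(CPM + 1) on the vertical axis, by group on the horizontal axis. Points are libraries, and the bars give the group mean and SD (3 control, 5 slow-growing, and 6 fast-growing libraries). *H19* in the controls and *Plagl1* in the PNs lie above the other groups without overlap, and the vertical scale differs between panels.

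Among the noncoding RNAs, *H19* (lincRNA, chr7:142575529-142578143, minus strand, GRCm38) was measured at 26.3, 26.4, and 183 CPM in the controls DRG3, DRG4, and DRG5. It was at 11.1, 1.95, 19.2, 6.04, and 2.99 CPM in the slow-growing PNs 1079, 1198A, 1202, 1203, and 1206. In the 6 fast-growing PNs its lowest value was 2.93, its median 5.75, and its highest 9.01 CPM. All 11 PNs thus lay below all 3 controls, and DRG5 lay far above the other controls. The log2 fold change was -3.53 (SE 0.58, edgeR adjusted p = 0.000607) in PNs versus controls, -3.31 (SE 0.88, adjusted p = 0.0447) in slow-growing PNs, and -3.84 (SE 0.65, adjusted p = 0.00199) in fast-growing PNs. DRG5 set much of the size of this difference. Without it the log2 fold change was -1.94 (adjusted p = 0.0402) in PNs, -1.74 (adjusted p = 0.273) in slow-growing PNs, and -2.19 (adjusted p = 0.00683) in fast-growing PNs by the same edgeR test. The call in slow-growing PNs was also lost without DRG4, 1079, 1198A, 1203, or 1206 (adjusted p = 0.0661 to 0.0855 without each), and held without DRG3 or 1202.

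The skeletal muscle score was highest in the library with the most *H19*. It was 9.56 in DRG5, 8.79 in DRG4, and 7.63 in DRG3, against 1.34 to 7.53 in slow-growing and 2.38 to 6.88 in fast-growing PNs. Over the 11 PNs the score and *H19* had r = 0.726 (permutation p = 0.0124, adjusted p = 0.0704 over 100 pairs of score and member) and rho = 0.691 (permutation p = 0.0228, adjusted p = 0.109). The value of r was 0.460 without the libraries 1079 and 1202, 0.0723 within the 6 fast-growing PNs, and 0.956 within the 5 slow-growing PNs. With the muscle and fat scores as covariates in the fit, the log2 fold change of *H19* was -2.09 (SE 0.97, edgeR adjusted p = 0.258) in PNs versus controls, and 462 genes in all were called. It was -0.50 (SE 1.16, adjusted p = 1.0) in slow-growing PNs and -3.41 (SE 2.89, adjusted p = 0.891) in fast-growing PNs, where 0 genes were called in either fit. Both scores were lower in every PN than in every control, so these fits cannot tell the group from the muscle and fat content. The markers of immature or regenerating muscle were near the floor. Their 8 genes summed to between 12.1 and 21.5 CPM in controls and between 2.70 and 7.86 in PNs. Over the 11 PNs the score of these markers and *H19* had r = 0.611 (permutation p = 0.0481, adjusted p = 0.15 over 100 pairs). The value of r was 0.927 within the 5 slow-growing PNs and -0.271 within the 6 fast-growing PNs. The part of these markers in the level of *H19* was not tested.

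**Figure D2:**
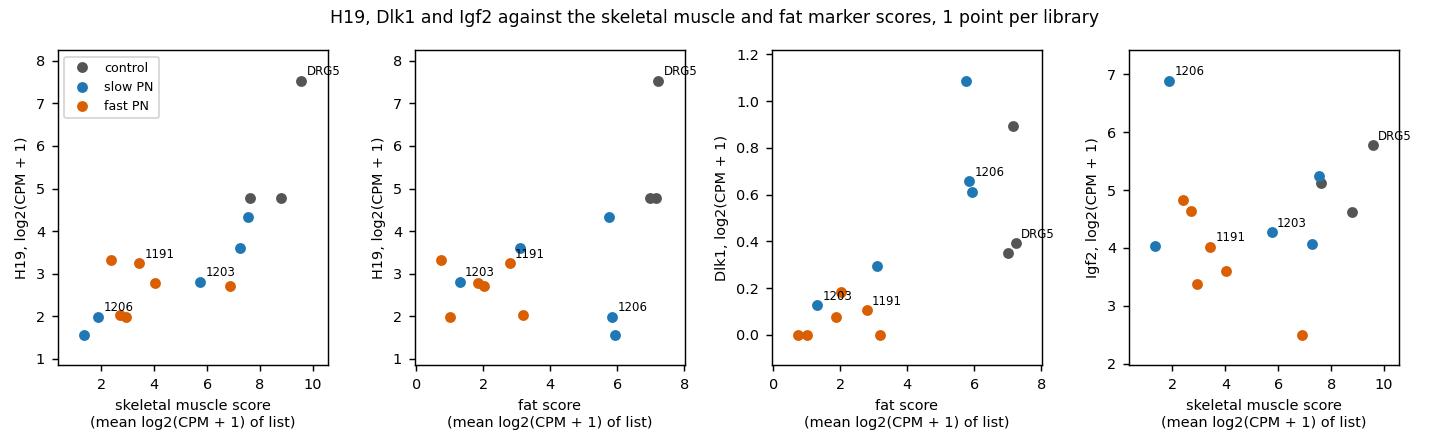
Levels of *H19*, *Dlk1*, and *Igf2* as log2(CPM + 1) against the skeletal muscle or fat marker score (mean log2(CPM + 1) of the list), 1 point per library, colored by group. The control DRG5 has the highest *H19* and, at 9.56, the highest muscle score, and the slow-growing PN 1206 has the highest *Igf2* with a muscle score of 1.87.

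*Igf2*, which lies beside *H19* and encodes the growth factor (chr7:142650766-142666816, minus strand), was called by edgeR in none of the comparisons. It was at 34.0, 23.6, and 53.7 CPM in controls and at 15.7, 15.3, 37.0, 18.3, and 117 CPM in the slow-growing PNs, in the order given above. In fast-growing PNs it ranged from 4.64 to 27.3 CPM, with a median of 13.1. The groups overlapped, and the library 1206 alone lay far above the other slow-growing PNs. The log2 fold change was -0.49 (SE 0.70, edgeR adjusted p = 0.640) in PNs versus controls, 0.09 (SE 0.72, adjusted p = 0.945) in slow-growing PNs, and -1.36 (SE 0.49, adjusted p = 0.0629) in fast-growing PNs. DESeq2 called this last difference (-1.36, adjusted p = 0.0310), as did limma-voom (-1.50, adjusted p = 0.0479). It was -0.94 (edgeR adjusted p = 0.279) without DRG5, and the adjusted p was 0.152 in a fit of all 3 groups. The slow-growing value turned to -0.84 (adjusted p = 0.204) without 1206. Of the exon bases of *Igf2*, 62.8% are shared with *Gm49394*, an annotated gene on the same strand, so reads of both cannot be told apart.

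The ratio of *H19* to *Igf2* within a library does not depend on scaling. It was 0.776, 1.12, and 3.41 in the controls and 0.707, 0.132, 0.521, 0.333, and 0.0263 in the slow-growing PNs. In fast-growing PNs it ranged from 0.134 to 1.20. The slow-growing PNs thus all lay below the controls, while 1 fast-growing PN, 1071, lay above 2 of them. On the log2 scale the ratio was lower in PNs by 2.23 (exact permutation p = 0.0440), but the adjusted p over 20 ratio tests was 0.214. Over the 11 PNs, *H19* and *Igf2* had r = 0.0353 (permutation p = 0.921, adjusted p = 0.932 over 45 pairs of members).

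*Igf2r* (chr17:12682406-12769664, minus strand), the receptor that clears the growth factor, varied little. It was at 80.3, 97.4, and 93.3 CPM in controls and at 71.0, 57.6, 77.3, 64.5, and 85.4 CPM in slow-growing PNs, and it ranged from 64.2 to 95.8 CPM in fast-growing PNs. The groups overlapped, and its log2 fold change in PNs versus controls was -0.29 (interval of 2 SE each way -0.58 to -0.00406, edgeR adjusted p = 0.150). *Grb10* (chr11:11930508-12038683, minus strand), the adaptor of the insulin and IGF1 receptors, was at 41.5 ± 7.13 CPM (SD, n = 3) in controls, 52.3 ± 11.2 (SD, n = 5) in slow-growing PNs, and 49.3 ± 6.69 (SD, n = 6) in fast-growing PNs. Its log2 fold change in PNs versus controls was 0.27 (interval -0.06 to 0.61, edgeR adjusted p = 0.250). For these 2 genes the intervals leave out changes as large as 2-fold in PNs versus controls. The ratio of *Igf2* to *Igf2r* was lower in fast- than in slow-growing PNs by 1.26 on the log2 scale (exact permutation p = 0.0455, adjusted p = 0.214 over 20 ratio tests). With a library left out, this difference ran from -1.48 to -0.819. The ratio was 1.37 in the slow-growing PN 1206 and 0.222 to 0.479 in the other slow-growing PNs.

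*Cdkn1c* (chr7:143458339-143461050, minus strand), the cyclin-dependent kinase inhibitor, was at 17.0, 5.68, and 9.90 CPM in controls. It was at 13.4, 6.91, 12.7, 4.40, and 9.35 CPM in the slow-growing PNs and ranged from 2.67 to 9.61 CPM, with a median of 4.65, in the fast-growing PNs. Most fast-growing PNs lay at the low end of the other groups, and 1216, with the value of 9.61, lay among them. The log2 fold change was -1.18 (SE 0.44, edgeR adjusted p = 0.0672) in fast-growing PNs versus controls and -0.91 (SE 0.37, adjusted p = 0.191) in fast- versus slow-growing PNs. DESeq2 called the former (adjusted p = 0.0382) and limma-voom did not. The log2 fold change was -0.73 (edgeR adjusted p = 0.277) without DRG3 and -0.72 (adjusted p = 0.271) with the length and GC trend removed, and -1.48 (adjusted p = 0.0475) without DRG4. Without 1216, the fit of fast-growing PNs versus controls called 4 members, *H19*, *Igf2*, *Plagl1*, and *Cdkn1c*, among 4395 genes in all. An antisense gene, *Gm44732*, overlaps 30.7% of the exon bases of *Cdkn1c*, and the sources used here do not state whether the counting used strand.

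*Dlk1* (chr12:109452823-109463336, plus strand) was at the limit of what these libraries could show. Its counts were 10, 3, and 3 in the controls and 3, 7, 11, 1, and 6 in the slow-growing PNs, and they were 4 in all 6 fast-growing PNs together, of which 3 libraries had none. The mean level was 0.482 ± 0.326 CPM (SD, n = 3) in controls, 0.509 ± 0.399 (SD, n = 5) in slow-growing PNs, and 0.0446 ± 0.0557 (SD, n = 6) in fast-growing PNs. Each fast-growing PN was below each control and below 4 of the 5 slow-growing PNs or more. In an exact two-sided permutation test of CPM, chosen after the gene had failed the filter, the difference was -0.465 CPM in fast- versus slow-growing PNs (p = 0.00433, adjusted p = 0.0173 over 4 comparisons) and -0.437 CPM in fast-growing PNs versus controls (p = 0.0119, adjusted p = 0.0238), the latter being the smallest p that 3 against 6 libraries allow. With any 1 control left out the difference lay between -0.249 and -0.540 CPM, and 2 against 6 libraries are too few for the adjusted test to pass. In the edgeR fit without a filter, the adjusted p was 0.0264 in fast-growing PNs versus controls and 0.0792 in fast- versus slow-growing PNs.

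The fat score moved with *Dlk1*, whose product is also known as a marker of preadipocytes. It lay between 6.99 and 7.23 in controls, 1.30 and 5.94 in slow-growing PNs, and 0.74 and 3.19 in fast-growing PNs. In fast-growing PNs versus controls, edgeR called all 12 fat markers lower. Over the 11 PNs the score and *Dlk1* had r = 0.870 (permutation p = 0.00115, adjusted p = 0.0160 over 100 pairs) and rho = 0.725 (permutation p = 0.0158, adjusted p = 0.0842), with r = 0.855 without 1198A and 1206 and r = 0.274 within the 6 fast-growing PNs. With 3 or fewer counts in 8 of the 11 PNs, these values rest on few reads. The part of fat in the *Dlk1* counts was not tested.

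*Meg3* (lincRNA, chr12:109541001-109571726, plus strand), of the same domain, was among the more abundant members. It was at 542, 317, and 168 CPM in controls and at 740, 368, 1442, 2228, and 562 CPM in slow-growing PNs, and it ranged from 62.4 to 1086 CPM in fast-growing PNs, with a median of 454. The lowest value was that of 1191. *Rian* (chr12:109603940-109661716, plus strand), its downstream neighbor and a host of small nucleolar RNAs, was at 104, 58.6, and 49.1 CPM in controls and at 266, 86.7, 285, 406, and 118 CPM in slow-growing PNs, and it ranged from 40.7 to 252 CPM in fast-growing PNs. The groups overlapped for both genes, with the highest values in slow-growing PNs. In PNs versus controls the log2 fold change was 1.18 (SE 0.77, edgeR adjusted p = 0.273) for *Meg3* and 1.36 (SE 0.60, adjusted p = 0.110) for *Rian*. In slow-growing PNs versus controls it was 1.58 (SE 0.64, adjusted p = 0.143) and 1.66 (SE 0.53, adjusted p = 0.0795). DESeq2 called both in the latter comparison (adjusted p = 0.0393 and 0.00827), and limma-voom did not. *Gm26906*, an antisense gene, overlaps 6.79% of the exon bases of *Meg3*.

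The zinc finger gene *Peg3* (chr7:6703892-6730431, minus strand) was at 141, 58.6, and 79.4 CPM in controls and at 208, 106, 274, 533, and 137 CPM in slow-growing PNs. In fast-growing PNs it ranged from 53.1 to 275 CPM, with a median of 133. The groups overlapped, and the log2 fold change was 1.10 (SE 0.56, edgeR adjusted p = 0.164) in PNs versus controls and 1.37 (SE 0.55, edgeR adjusted p = 0.135, DESeq2 adjusted p = 0.0435) in slow-growing PNs. *Plagl1* (chr10:13060504-13131694, plus strand), which encodes a zinc finger regulator of other imprinted genes, was at 9.52, 6.60, and 9.48 CPM in controls. It was at 18.9, 17.6, 36.5, 83.1, and 12.5 CPM in slow-growing PNs and ranged from 12.1 to 44.6 CPM, with a median of 22.9, in fast-growing PNs. All 11 PNs were above all 3 controls. The log2 fold change was 1.76 (SE 0.56, edgeR adjusted p = 0.0314) in PNs versus controls, 1.91 (SE 0.63, adjusted p = 0.0863, DESeq2 adjusted p = 0.0110) in slow-growing PNs, and 1.50 (SE 0.38, adjusted p = 0.0151) in fast-growing PNs. Its call in PNs was lost when any of the 3 controls was left out, with a log2 fold change of 1.84 (adjusted p = 0.0673) without DRG3, 1.60 (adjusted p = 0.134) without DRG4, and 1.84 (adjusted p = 0.104) without DRG5. Its call in fast-growing PNs was lost without DRG4 (1.35, adjusted p = 0.0683). The call in PNs was also lost with limma-voom (log2 fold change 1.52, adjusted p = 0.0794) and with the length and GC trend removed (1.51, adjusted p = 0.0501). The call in fast-growing PNs was lost in a fit of all 3 groups (1.56, adjusted p = 0.0578). With the muscle and fat covariates the log2 fold change of *Plagl1* stood at 1.82 in PNs versus controls (SE 0.78, edgeR adjusted p = 0.228).

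**Figure D3:**
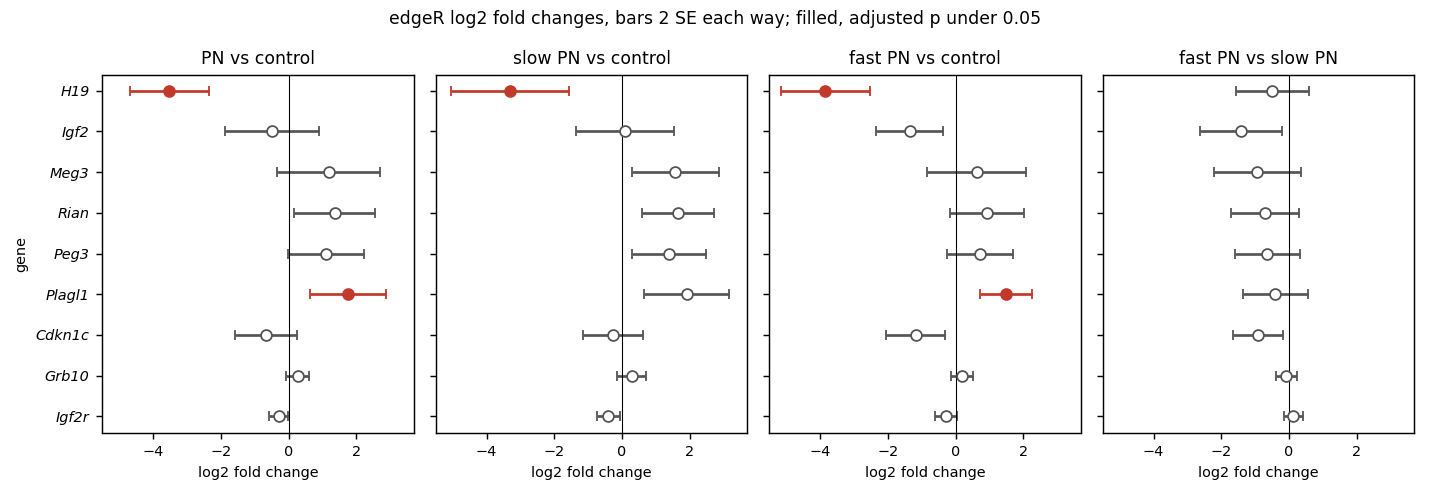
Log2 fold changes of the 9 tested members on the horizontal axis, by gene on the vertical axis, in 4 comparisons. Points are edgeR estimates, bars reach 2 SE each way, and filled red points have an adjusted p under 0.05: *H19* in each comparison with controls and *Plagl1* in the first and the third.

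In fast- versus slow-growing PNs, edgeR called 0 of the 9 members, where 1.27% of 15465 genes were called. DESeq2 and limma-voom also called 0, and 2 members, *Igf2* and *Cdkn1c*, had an unadjusted p under 0.05. *Igf2* was lower in fast-growing PNs by a log2 fold change of -1.42 (interval -2.64 to -0.20, edgeR adjusted p = 0.217), with 15.2 ± 8.73 CPM (SD, n = 6) against 40.7 ± 43.7 CPM (SD, n = 5). Without the slow-growing PN 1206 this difference was -0.48 (edgeR adjusted p = 0.561). For *H19* the difference was -0.50 (interval -1.58 to 0.59) and for *Plagl1* -0.40 (interval -1.37 to 0.57), and neither was called. These intervals are wide, and they do not show that slow- and fast-growing PNs had the same levels.

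*Meg3*, *Rian*, and *Peg3* varied together among the tumors, and *Plagl1* with *Peg3* and *Rian*. Of the 45 pairs of members, 5 had an adjusted permutation p under 0.05 for r over the 11 PNs, and all 5 lay among these 4 genes. *Meg3* and *Peg3*, which lie on different chromosomes, had r = 0.966 (permutation p = 1e-05, the smallest that 100000 resamples can give, adjusted p = 0.000225) and rho = 0.973 (permutation p = 3e-05, adjusted p = 0.0009). *Meg3* and *Rian* had r = 0.958 (adjusted permutation p = 0.000225), and *Rian* and *Peg3* had r = 0.976 (adjusted permutation p = 0.0003). Without 1191 and 1203, the lowest and the highest library, these 3 values were 0.965, 0.950, and 0.973, and within the 6 fast-growing PNs they were 0.981, 0.974, and 0.996. *Peg3* and *Plagl1* had r = 0.869 (adjusted permutation p = 0.00709), which fell to 0.719 without the same 2 libraries, and *Rian* and *Plagl1* had r = 0.776 (adjusted permutation p = 0.0414), which fell to 0.599. For *Rian* and *Plagl1* rho was 0.727 with an adjusted permutation p of 0.109. *Meg3* and *Plagl1* did not pass (r = 0.771, adjusted permutation p = 0.0515, and 0.612 without the same 2 libraries).

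**Figure D4:**
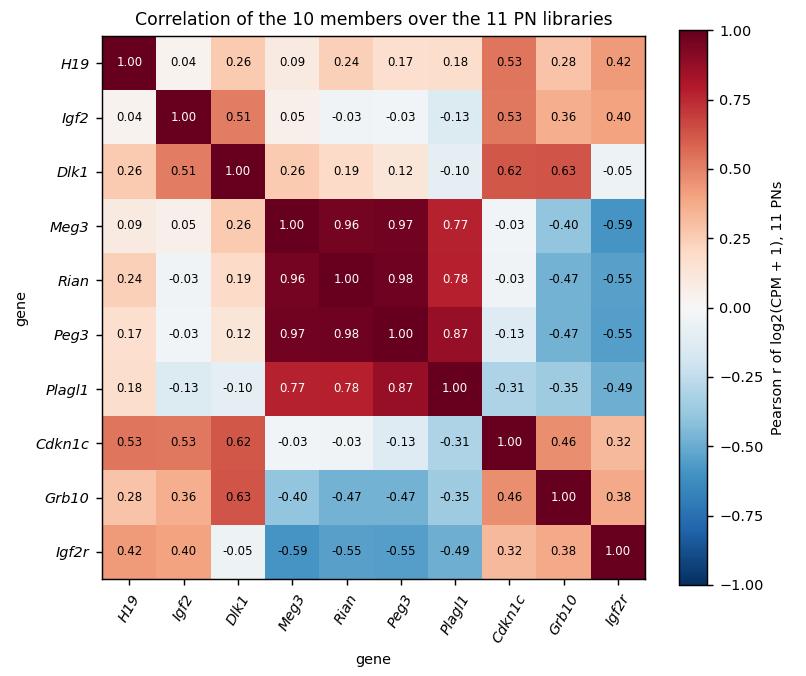
Pearson r of log2(CPM + 1) between each pair of the 10 genes over the 11 PN libraries, with red for positive and blue for negative values and the value in each cell. *Meg3*, *Rian*, and *Peg3* form a block with r of 0.958 or more, and *H19* and *Igf2* stand at 0.0353.

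These transcripts followed the sensory neuron markers. *Rbfox3*, *Snap25*, *Nefl*, and the other 9 genes of that list gave scores of 6.22 to 7.91 in controls and 6.75 to 9.27 in slow-growing PNs. In fast-growing PNs the scores were 1.46 in 1191 and at most 8.54. Over the 11 PNs the score had r = 0.939 with *Meg3* (adjusted permutation p = 0.0005 over 100 pairs), r = 0.859 with *Peg3* (adjusted p = 0.0005), and r = 0.851 with *Rian* (adjusted p = 0.001), by permutation in each case. The order of the PNs by *Peg3* was the same as by the score (rho = 1.0). Without 1191 and 1203 the values of r were 0.929, 0.965, and 0.932. For *Plagl1* r was 0.664 (permutation p = 0.0415, adjusted p = 0.148) and rho was 0.827 (permutation p = 0.00272, adjusted p = 0.0299). The fibroblast score moved the other way, with r = -0.928 for *Peg3* and r = -0.885 for *Meg3* (adjusted permutation p = 0.00375 and 0.0160), and r = -0.850 for *Plagl1* (adjusted permutation p = 0.0127, rho = -0.709 with adjusted p = 0.0955). The macrophage score also moved the other way, with r = -0.769 for *Meg3*, -0.815 for *Rian*, and -0.798 for *Peg3* (adjusted permutation p = 0.0265 to 0.0280). By rank, macrophages and *Peg3* did not pass (rho = -0.727, adjusted permutation p = 0.0823). The score of immature or regenerating muscle, whose markers were near the floor, moved with the same 3 genes, with r = 0.764, 0.834, and 0.796 (adjusted permutation p = 0.0221 to 0.0265). *Igf2r* moved with the score of endothelial cells and pericytes (r = 0.749, adjusted permutation p = 0.0407, rho = 0.864 with adjusted p = 0.0223). The part of each cell type in these levels was not tested. In all, 15 of the 100 pairs had an adjusted p under 0.05 for r, and 12 had it for both r and rho. These pairs were examined after the levels had been seen.

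**Figure D5:**
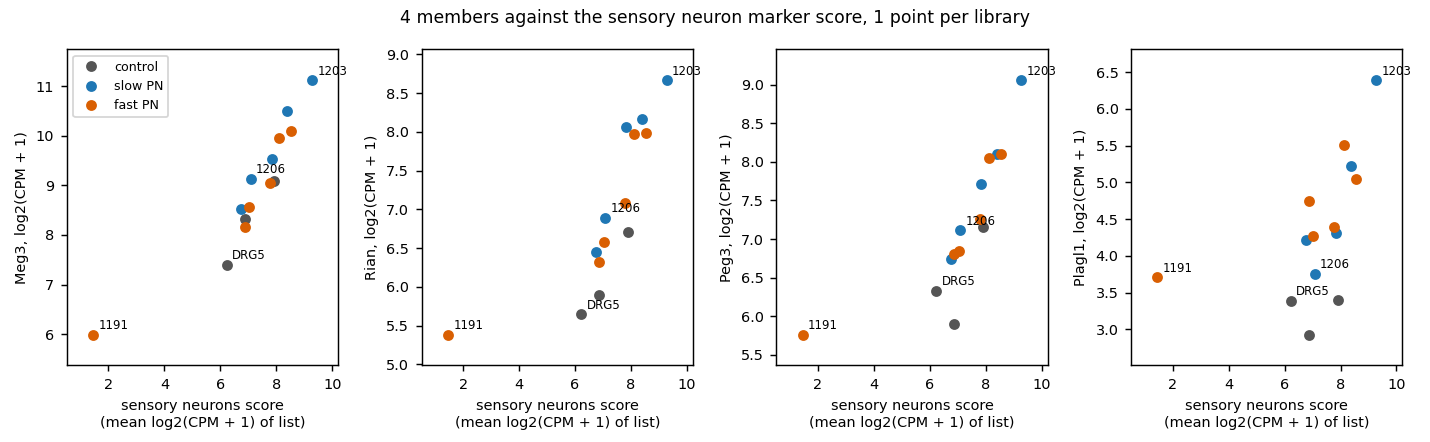
Levels of *Meg3*, *Rian*, *Peg3*, and *Plagl1* as log2(CPM + 1) against the sensory neuron marker score (mean log2(CPM + 1) of 12 genes), 1 point per library, colored by group. The fast-growing PN 1191, with a score of 1.46, has the lowest level of the PNs in each panel, and the slow-growing PN 1203, with 9.27, has the highest.

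The score itself did not separate PNs from controls (difference 0.19, exact permutation p = 0.849, adjusted p = 0.849). With the score as a covariate, a choice made after the data had been seen, the edgeR fit of PNs versus controls called 4 members, *H19*, *Rian*, *Peg3*, and *Plagl1*, with 5416 genes called in all. The log2 fold changes were then 1.13 (SE 0.33, adjusted p = 0.0177) for *Rian*, 0.89 (SE 0.31, adjusted p = 0.0409) for *Peg3*, and 1.58 (SE 0.42, adjusted p = 0.0111) for *Plagl1*. *Meg3* stood at 0.78 (SE 0.30, adjusted p = 0.0587) in that fit. In fast-growing PNs versus controls the same covariate gave 3 calls, *H19*, *Rian*, and *Plagl1*, among 6193 genes in all, and in slow-growing PNs 0, among 1839. The log2 fold changes in slow-growing PNs versus controls were then 0.59 for *Meg3*, 0.84 for *Rian*, 0.52 for *Peg3*, and 0.91 for *Plagl1*, each lower than without the covariate, and -3.23 for *H19* (edgeR adjusted p = 0.178). Without 1191 and with no covariate, the calls in PNs versus controls were *H19* and *Plagl1*, and the log2 fold changes were 1.28 for *Meg3* (adjusted p = 0.131), 1.43 for *Rian* (adjusted p = 0.0533), and 1.18 for *Peg3* (adjusted p = 0.0876) by edgeR.

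Per kilobase of exon, where levels of different genes can be set side by side, *H19* had the highest mean of the members in controls and the second lowest in PNs. The first place rested on DRG5, where *H19* was at 74.6 CPM per kilobase. In DRG3 and DRG4 *H19* was at 10.7 in each, below *Meg3* at 30.0 and 17.5 CPM per kilobase. In controls *H19* was at 32.0 ± 36.9 and *Meg3* at 18.9 ± 10.4 CPM per kilobase (SD, n = 3), followed by *Igf2r*, *Peg3*, *Igf2*, *Cdkn1c*, *Grb10*, *Rian*, *Plagl1*, and *Dlk1*. In PNs *Meg3* was at 43.5 ± 34.4, and *Igf2r* at 8.02 ± 1.25 CPM per kilobase (SD, n = 11), with *Peg3* and *Rian* between them, followed by *Grb10*, *Igf2*, *Plagl1*, *Cdkn1c*, *H19*, and *Dlk1*. Neighbors in these orders overlapped within 1 SD of their means, other than *Rian* and *Plagl1* and *Plagl1* and *Dlk1* in controls, and *Igf2r* and *Grb10* and *H19* and *Dlk1* in PNs.

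Of all genes tested, those whose pattern over the 11 PNs was most like that of *H19* were *Itgb1bp2* (r = 0.851), *Polr2c* (r = 0.836), and *C920025E04Rik* (r = 0.823). *Itgb1bp2* encodes melusin, a protein of striated muscle. For *Plagl1* they were *Ppp1r2* (r = 0.977), *Ccdc127* (r = 0.977), and *Gna14* (r = 0.976). These are the highest 3 of 16282 genes for each member and are a description.

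Other imprinted genes moved in both directions, and the share called was near that of all genes. Of 48 listed, 39 were tested in PNs versus controls, 6 were higher and 5 were lower by edgeR (28.2%, against 26.3% of all genes), with a median log2 fold change of 0.10 beside 0.10 over all genes. *Kcnq1ot1*, the paternally expressed noncoding RNA that silences *Cdkn1c* in cis, rose from 411 ± 16.8 CPM (SD, n = 3) in controls to 1252 ± 172 (SD, n = 11) in PNs, a log2 fold change of 1.59 (SE 0.17, edgeR adjusted p = 2.06e-05). *Peg10*, a retrotransposon-derived gene, rose by 1.67 (adjusted p = 0.000816). *Slc38a4*, an amino acid transporter, had a log2 fold change of -3.28 (adjusted p = 0.00190), and *Slc22a3*, a cation transporter of the *Igf2r* domain, one of -2.81 (adjusted p = 0.00556). Every PN was above every control for *Kcnq1ot1* and *Peg10* and below for *Slc38a4* and *Slc22a3*. These genes were named for the size of their change, and 17.6% of all genes tested had no overlap. *Mkrn3*, called higher, lay under the floor of 3 counts in controls.

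In slow-growing PNs versus controls, 37 imprinted genes of this list were tested. EdgeR called 3 higher and 2 lower (13.5%, against 11.3% of all genes). DESeq2 called 12 and limma-voom 7, but the 11.3% is the share of edgeR, and DESeq2 called more genes in all than edgeR here. For the genes called by edgeR, the log2 fold changes were 1.67 for *Kcnq1ot1*, 1.36 for *Peg10*, 1.05 for *Inpp5f*, -2.59 for *Slc38a4*, and -0.54 for *Nap1l4*. In fast-growing PNs, 6 of 36 were higher and 6 lower (33.3%, against 31.4%), and the largest changes were -4.44 for *Slc38a4*, -3.89 for *Slc22a3*, 2.55 for *Tfpi2*, 1.83 for *Peg10*, and 1.43 for *Kcnq1ot1*. Between fast- and slow-growing PNs, 0 of 35 were called by edgeR, against 1.27% of all genes, and 0 by limma-voom. DESeq2 called 6, and 11 had an unadjusted edgeR p under 0.05. The shares of all genes for these last counts are not given here, so no excess is read from them.

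Partners of the insulin and IGF receptors were called at about the share of all genes. Of 20 tested, 5 were higher and 0 lower in PNs versus controls (25%, against 26.3% of all genes). *Pik3r1*, the regulatory subunit of PI3K, had a log2 fold change of 0.91 (edgeR adjusted p = 0.00253), and the others included *Shc1* at 0.84, *Gab1* at 0.83, and *Foxo3* at 0.46. In fast-growing PNs, 5 were higher and 2 lower (35%, against 31.4%), among them the adaptor *Grb7* at -2.28. In slow-growing PNs edgeR called 0 of 20, against 11.3% of all genes, with 4 at an unadjusted p under 0.05, limma-voom called 1, and DESeq2 called 3. The receptors *Igf1r* (0.46, adjusted p = 0.103) and *Insr* (0.12, adjusted p = 0.709) were not called in PNs versus controls.

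Of the 19 cyclins, cyclin-dependent kinases, and inhibitors tested beside *Cdkn1c* in PNs versus controls, 2 were higher and 1 lower (15.8%, against 26.3% of all genes). *Ccnd1*, which encodes cyclin D1, had a log2 fold change of 2.60 (edgeR adjusted p = 0.0401), *E2f1* 1.18 (adjusted p = 0.000583), and *Ccne1* -1.22 (adjusted p = 0.00461). In fast-growing PNs, 5 of 19 were higher and 2 lower (36.8%, against 31.4% of all genes), led by *Ccnd1* at 3.12, the inhibitor *Cdkn2b* at 2.15, and *Cdk6* at 1.62. In slow-growing PNs edgeR called *E2f1* (1.23, adjusted p = 0.0201) of 18, against 11.3% of all genes by edgeR, and DESeq2 called 2. Proliferation markers did not separate PNs from controls (score difference -0.52, exact permutation p = 0.349, adjusted p = 0.582).

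Among Notch receptors and targets, listed for their relation to *Dlk1*, 0 of 12 were higher and 2 lower in PNs versus controls (16.7%, against 26.3% of all genes). These were the target *Heyl* at -1.31 (edgeR adjusted p = 0.00347) and the receptor *Notch3* at -1.16 (adjusted p = 0.0216), both known from vessel wall cells. The score of endothelial cells and pericytes was lower by 1.32 as well (exact permutation p = 0.0110, adjusted p = 0.0220), and its part was not tested. In fast-growing PNs, 2 were higher and 3 lower (41.7%, against 31.4% of all genes), with the ligand *Dll1* at -2.55, *Heyl* at -1.62, *Hes1* at 1.50, *Notch3* at -1.47, and *Notch1* at 0.62. In slow-growing PNs edgeR called 0 of 12, against 11.3% of all genes, with 1 at an unadjusted p under 0.05, and DESeq2 and limma-voom called 1 each.

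Of 13 imprint maintenance factors tested in PNs versus controls, edgeR called 1 (7.69%, against 26.3% of all genes), DESeq2 called 3, and limma-voom 2. The gene called by edgeR was *Tet1*, a dioxygenase that removes DNA methylation, with a log2 fold change of 0.98 (SE 0.16, edgeR adjusted p = 0.000628). It was also called in slow-growing PNs (0.96, adjusted p = 0.0297) and in fast-growing PNs (0.91, adjusted p = 0.00153), where *Tet3* was called at 0.60 (adjusted p = 0.0334). In fast- versus slow-growing PNs, edgeR and limma-voom called 0 genes of each of these 4 lists, where edgeR called 1.27% of all genes. At an unadjusted edgeR p under 0.05 there were 4 of 20, 6 of 18, 2 of 12, and 4 of 13. DESeq2 called 1, 4, 0, and 0 in the same order. The shares of all genes by DESeq2 or at an unadjusted p are not given here, so no excess is read from these counts.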

How the data were processed

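Bulk RNA-seq libraries of 14 mice (3 control DRGs, 5 slow-growing PNs, 6 fast-growing PNs) were analysed, grouped by the sample labels. Per the labels, total RNA was amplified before sequencing (Ovation kit), and the submitters' processing notes name TopHat2 2.0.9, featureCounts 1.5.2, edgeR 3.16.5, and mm10. The deposited counts are whole reads per gene, not normalized. The deposited log2 values were scaled with TMM by the authors and served as an alternative only.

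From the counts, genes were kept with filterByExpr and tested with the quasi-likelihood test of edgeR 4.0.16 in R 4.3.3 with TMM factors, with only the libraries of a comparison in each fit. Genes were called at a Benjamini-Hochberg adjusted p under 0.05 over all genes tested, and SE is the absolute log2 fold change over the square root of F. Levels are CPM after TMM. Scores and correlations used log2(CPM + 1), and ratios used counts plus 1. Exact permutation tests were two-sided, and correlations used 100000 resamples and are two-sided. limma 3.58.1 and DESeq2 1.42.0 served as alternatives, together with covariates, other scaling and filters, and each library left out in turn. Percentages of all genes called are those of edgeR. List counts by DESeq2, limma-voom, or an unadjusted p are not compared with them. The edgeR script was tested on simulated data.

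The members and lists were chosen with earlier results of these data known. Named genes are the members, up to 5 called genes of each list and comparison with the largest change, and the 3 genes most like each called member. Also named are *Nf1*, *Rn45s*, *Igf1r*, *Insr*, and marker genes, of which *Rn45s*, *Igf1r*, and *Insr* were chosen after their values had been seen. Positions came from the GENCODE annotation of GRCm38, which matched 22750 genes by symbol. Sex and batch are not given per library here, so they cannot be told apart from the groups, and nothing says that libraries of a group shared or did not share a litter. Because the RNA was amplified, floors cover counting error only. P-values measure the spread between these libraries. 1 gene of a pathway list is not reported here by name.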

Additional observations from a re-analysis of the deposited data

Results flagged for a closer look

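4 of 30 groups of values tested held a library far from the others by Dixon's criterion at the 95% level, where chance gives about 1 in 20. All 4 were groups of PNs. These flags do not speak to the controls, where *H19* was at 26.3 CPM in DRG3, 26.4 in DRG4, and 183 in DRG5. Among the slow-growing PNs, the library 1206 had 117 CPM of *Igf2*, and its gap to the next library took up 0.788 of the range of the group. Among the fast-growing PNs, 1216 had 9.61 CPM of *Cdkn1c* (0.654 of the range). The fast-growing PN 1191 had the lowest log2 ratio of *Meg3* to *Dlk1*, 8.69 (0.670 of the range), and of *Meg3* to *Rian*, 0.616 (0.820 of the range). This is the library in which the sensory neuron markers summed to 27.9 CPM.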

How the results depend on the processing

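Of 1319 alternative values for 116 results, 1205 kept their direction and their side of the threshold or count. No paired analysis was possible because the libraries carry mouse names and no shared replicate numbers. In PNs versus controls, the number of members called, 2 by edgeR, was 1 with DESeq2, limma-voom, a length and GC trend removed, DRG5 and 1191 left out, or a threshold of 0.01, 4 with the neuron score as a covariate, and 0 with the muscle and fat scores as covariates. It was 1 to 2 with a library left out. In slow-growing PNs versus controls it was 4 with DESeq2, 2 with a 3-group fit, 3 at a threshold of 0.1, and 0 with limma-voom, the deposited log2 values, the marker covariates, the length and GC trend removed, or a threshold of 0.01, against 1 by edgeR. It was 0 to 1 with a library left out, being 0 without DRG4, DRG5, 1079, 1203, or 1206, and without 1198A the call was *Rian* in place of *H19*. In fast-growing PNs versus controls it was 3 with DESeq2 (*Igf2*, *Plagl1*, *Cdkn1c*) or limma-voom (*H19*, *Igf2*, *Plagl1*), against 2 by edgeR, 1 with a 3-group fit or a threshold of 0.01, 4 at a threshold of 0.1, and 0 with the muscle and fat covariates, a fit in which 0 genes were called at all. It was 2 to 4 with a library left out, reaching 4 without 1216. DESeq2 gave no adjusted p for *H19* in the comparisons with controls. Member counts under other tools and thresholds stand here without the share of all genes called under each. They are not read as a result about the members.

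None of the results that changed direction was called. With the muscle and fat covariates, the log2 fold change was 0.0233 for *Igf2* and 0.17 for *Cdkn1c* in PNs, 0.79 for *Cdkn1c* in slow-growing PNs, and 0.18 for *Grb10* and 0.34 for *H19* in fast- versus slow-growing PNs. In slow-growing PNs versus controls, *Igf2* stood at -0.37 with limma-voom and -0.38 in the deposited values, and *Cdkn1c* at 0.16 with the length and GC trend removed. In fast- versus slow-growing PNs *Plagl1* stood at 0.0460 with the neuron covariate. With a library left out, in slow-growing PNs versus controls, *Igf2* ran from -0.84 (without 1206) to 0.45, *Cdkn1c* from -0.56 to 0.21 (without DRG3), and *Dlk1* from -0.126 (without 1202) to 0.216 CPM. In fast- versus slow-growing PNs, *H19* ran from -0.75 to 0.0736 (without 1202), *Grb10* from -0.17 to 0.0105 (without 1202), and *Plagl1* from -0.60 to 0.25 (without 1203). The log2 ratio of *Cdkn1c* to *Igf2* ran from -0.0798 to 0.64 in PNs, from -0.27 to 0.59 in slow-growing PNs versus controls, and from -0.27 to 0.59 in fast- versus slow-growing PNs, that of *Igf2* to *Igf2r* in slow-growing PNs from -0.38 to 0.34, and that of *Meg3* to *Rian* from -0.29 to 0.0854. The sensory neuron score ran from -0.196 to 0.766 in PNs and from -0.758 to 0.665 (without 1191) in fast-growing PNs versus controls. The cause of these changes was not tested. Depth limits *Dlk1*, of which 3 counts equal 0.167 to 0.313 CPM.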
